A study of Mus musculus with 12 samples.

Results

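The response to caerulein was examined in pancreas that lacks Mist1 (gene symbol Bhlha15), a basic helix-loop-helix transcription factor. Whole pancreas RNA from 3 Mist1KO mice given caerulein was compared with RNA from 3 Mist1KO mice given saline. These are 6 of the 12 arrays of the series, and all 22452 non-control probe sets of the 22516 on the array were read in them. The other 6 arrays came from C57BL6 wild-type pancreas, 3 after saline and 3 after caerulein, and served to show where the Mist1KO response differed.

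All mice were males of 2 to 4 months that received an injection each hour for 4 hours and were killed at the 4 hour point. The labels name the strain of the wild type only, and they give neither the Mist1KO allele nor the background it was kept on. Strain and genotype therefore cannot be told apart wherever the 2 genotypes are set side by side. The comparison of caerulein with saline within Mist1KO does not carry that limit. The design text calls the 3 pancreata of a group biological replicates, and no label ties pancreata of different groups to each other.

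Acinar cells make most of the exocrine pancreas and store digestive enzymes in zymogen granules, which they release by exocytosis in response to cholecystokinin. Caerulein is a peptide that acts on the cholecystokinin receptor and, given repeatedly above the dose for maximal secretion, brings on an acute pancreatitis in rodents. Mist1 is expressed in serous secretory cells, where it is needed for granule organisation and apical polarity. Secretory cells also depend on 2 linked stress programmes, the unfolded protein response, which raises endoplasmic reticulum (ER) chaperones, and the integrated stress response, in which phosphorylated eIF2α favours translation of ATF4.

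The targeted gene was low in every Mist1KO array. On the brighter of its 2 probe sets, Bhlha15 signals were 1601, 1619 and 1624.3 in wild-type saline pancreas. They were 89.9, 95.9 and 106.8 in Mist1KO saline pancreas and 42.6, 38.3 and 79.4 in Mist1KO caerulein pancreas. The Mist1KO groups did not overlap each other, and the change was -0.73 ± 0.17 (SE) on the log2 scale (adjusted p = 0.00764). The second probe set read 56.7 to 82.0 in all 6 Mist1KO arrays with no separation between the groups, and its log2 change was -0.01. Whether either probe set lies inside the deleted part of the gene was not tested.

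Signals are linear intensities that the authors scaled so that the trimmed mean of each array lay between 151.08 and 151.37. A change below is a difference of group means of log2(signal + 18.7), a scale that understates the change of dim probe sets. It is given with its SE from 1 limma model over the 12 arrays and with a p-value adjusted over the 15716 probe sets that passed the filter on dim signals. "Rose" and "fell" are used for an adjusted p under 0.05. The array median was 77.9 to 83.2 in Mist1KO saline and 70.6 to 74.8 in Mist1KO caerulein pancreas. The hybridisation spikes, control RNAs added from outside, had a geometric mean of 1223 ± 171 (SD, n = 3) in saline and 632 ± 82.9 in caerulein arrays, a log2 difference of -0.95 against -0.25 in wild type. The 3' to 5' signal ratio of the Actb control was 1.82 ± 0.113 and 1.12 ± 0.0647, and that of the Gapdh control 0.963 ± 0.0285 and 0.983 ± 0.0575. The same ratio of the pyruvate carboxylase control went the other way, at 2.36 ± 0.566 and 3.26 ± 0.517. The part of these array measures in the results was not tested. Mist1KO caerulein replicate 3 stood apart, with a score of 28.9 on the first principal component against 47.4 and 52.1 for the other caerulein arrays and -34.7 to -29.8 for the saline arrays. Without it, 3691 probe sets passed the test in place of 3764.

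Caerulein changed 24.0% of the probe sets tested in Mist1KO pancreas, with the calcineurin inhibitor Rcan1 at the head of the rises and the prostaglandin enzyme Hpgd at the head of the falls. Of the 15716 probe sets, 3764 passed, 1654 (10.5%) higher and 2110 (13.4%) lower. A change of at least 2-fold was called for 819 probe sets (5.21%) that rose and 606 (3.86%) that fell. With 1 probe set a gene, 970 of 9481 genes rose (10.2%) and 1328 fell (14.0%), and the median log2 change over all genes was -0.14. The counts of each gene list below are to be read against these shares. The 3 arrays of one group lay wholly beyond the 3 of the other for 6824 probe sets (43.4%), 3705 of the 3764 called ones among them. Over genes that share was 43.1%.

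The split between rises and falls moved with the scaling. Among called probe sets 43.9% were higher on the deposited scale, 59.7% after each array was centred on its median and 48.9% after quantile normalization. The median change over the probe sets tested was -0.13 as deposited, -0.01 after centring and -0.06 after quantile normalization. A small fall is therefore read below against that shift. Among the genes chosen by the naming rule, every called rise above 1 on the log2 scale also passed after centring and after quantile normalization, except those of Jchain and Btg2 under quantile normalization.

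Rcan1, a calcineurin inhibitor that calcineurin signalling itself induces, had the largest rise among the brightest probe sets of each gene. Its signals were 124.2, 22.0 and 16.7 after saline and 4011, 3704.1 and 1649.8 after caerulein. The groups were far apart, with saline replicate 1 the highest of its group and caerulein replicate 3 the lowest of its own. The change was 5.63 ± 0.63 on the log2 scale, 49.5-fold (adjusted p = 2.15e-05), and 6.27 without Mist1KO saline replicate 1. Gclc, the catalytic subunit of the rate-limiting enzyme of glutathione synthesis, read 217.3, 214.4 and 85.6 after saline and 5543.9, 5092.1 and 5573.3 after caerulein. All 3 caerulein arrays sat close together, 30.3-fold above saline (4.92 ± 0.25, adjusted p = 4.46e-08).

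**Figure D1:**
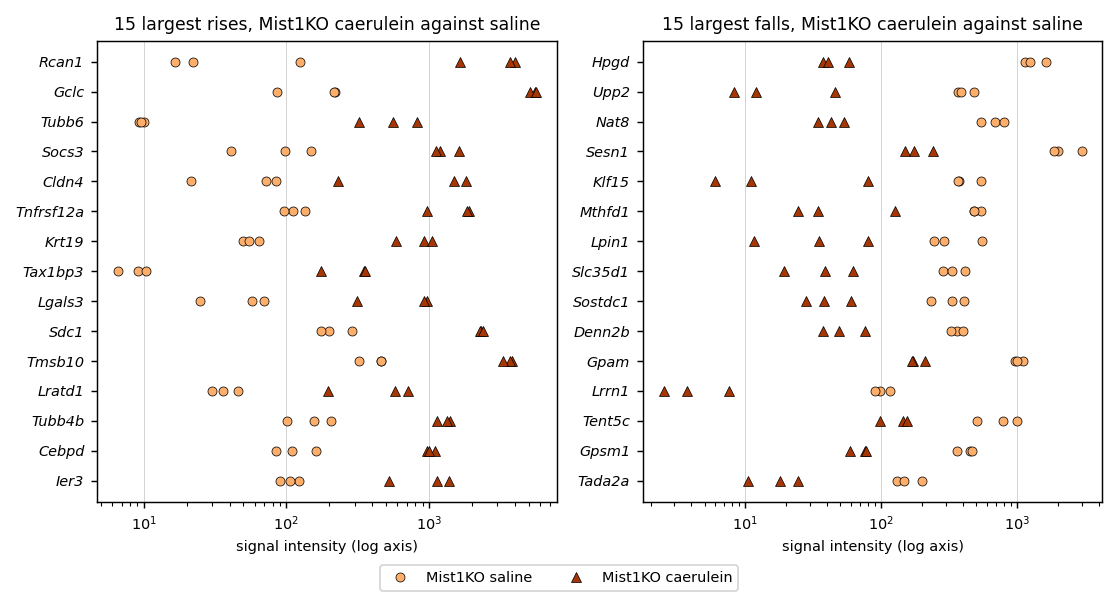
Signal on a log axis in each of the 3 Mist1KO saline arrays (circles) and the 3 Mist1KO caerulein arrays (triangles) for the 15 genes with the largest rise (left) and the 15 with the largest fall (right). Groups that do not overlap were a condition of the choice. For Cldn4 and Klf15 a single caerulein array lies nearer to saline than the other caerulein arrays do.

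The other large rises were in genes of differing roles. Tubb6, a beta tubulin, rose from 9.3 to 10.0 after saline to 320.3 to 826.1 after caerulein (4.27 ± 0.30, adjusted p = 4.82e-07). Socs3, the feedback inhibitor of JAK and STAT signalling, rose 12.4-fold (3.63 ± 0.49). Tnfrsf12a, the receptor for the cytokine TWEAK, rose 11.6-fold (3.53 ± 0.34), and its dimmer probe set by 5.70 on the log2 scale. Groups that do not overlap were a condition for a place among the 15, and 43.1% of all genes tested met it. Krt19, an epithelial keratin found in pancreatic ducts, rose 11.3-fold, Lgals3, the lectin galectin-3, 10.2-fold and Sdc1, a cell surface proteoglycan, 9.98-fold. Tmsb10, which binds actin monomers, rose 8.39-fold, and the tubulin Tubb4b 7.82-fold on its brightest probe set, whose 3 dimmer companions had log2 changes between -0.16 and 0.28 and did not pass. The remaining genes of the 15 largest rises, Tax1bp3, Lratd1, Cebpd and Ier3, rose 7.68-fold to 10.9-fold.

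Cldn4, a claudin of tight junctions, was uneven among the caerulein arrays. Signals were 21.3, 84.9 and 71.7 after saline and 1496.3, 1814.4 and 229.7 after caerulein. The third caerulein array lay well below the others but above all saline arrays, and the change was 3.62 ± 0.62 (adjusted p = 0.000666), or 4.53 without that array.

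Ceacam1, a cell adhesion molecule of epithelia, was named after its values were seen, since its brightest probe set rose less than the others. On that probe set signals went from 736, 540.3 and 485.9 to 3486.5, 3457.2 and 3350.3, a change of 2.53 ± 0.19. On another of its 7 probe sets they went from 16.0, 5.6 and 5.1 to 2574.4, 3107.4 and 1918.3, a change of 6.53 ± 0.33, the largest over all probe sets tested (adjusted p = 4.46e-08). All 7 rose in Mist1KO, and on all 7 the response was larger than in wild type, by 1.56 to 3.70 on the log2 scale (adjusted p of the difference 0.000796 to 0.0249).

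The 15 largest falls were in genes of differing roles, metabolic enzymes among them. Hpgd, which inactivates prostaglandins, read 1622.6, 1144.1 and 1236.8 after saline and 37.3, 40.8 and 57.5 after caerulein. Every caerulein array was far below every saline array, a 21.1-fold fall (-4.40 ± 0.28, adjusted p = 2e-07). Upp2, a uridine phosphorylase, fell 11.4-fold, and Sesn1, a p53 target that restrains mTORC1, fell 11-fold. Klf15, a transcription factor of fasting metabolism, read 543.1, 371.8 and 369.4 after saline and 10.9, 6.0 and 79.7 after caerulein. The groups did not overlap, but the third caerulein array was again nearest to saline (-3.40 ± 0.39, and -4.02 without it). Lpin1, a phosphatidate phosphatase of triglyceride synthesis, fell 6.58-fold, Gpam, a glycerol-3-phosphate acyltransferase of the same pathway, 5.18-fold and Mthfd1, a folate enzyme, 7.55-fold. The other 7 genes apart from Nat8, which were the secreted Wnt and BMP antagonist Sostdc1, the nucleotide sugar transporter Slc35d1, the transcription adaptor Tada2a, Denn2b, Lrrn1, Tent5c and Gpsm1, fell 4.89-fold to 6.38-fold.

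Nat8, an N-acetyltransferase, fell in Mist1KO without a counterpart in wild type. Its signals were 537.2, 684.3 and 803.0 after saline and 53, 34.4 and 42.8 after caerulein in Mist1KO. In wild type they were 263.9, 194.5 and 212.7 against 220.1, 218.4 and 222.8. The Mist1KO groups were wide apart while the wild-type groups overlapped, and the difference between the responses was -3.46 ± 0.25 (adjusted p = 2.26e-05). Hpgd started from a different level, at 83.9 to 125.4 in wild-type saline arrays, and its responses differed by -2.71 ± 0.40 (adjusted p = 0.00369, and 0.0712 with 1 added before the log2 in place of 18.7).

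Set beside wild type, the 2 responses shared many called genes, and a test of their difference passed for a small share of probe sets. The wild-type response passed for 2975 probe sets (18.9%), 1444 higher (9.19%) and 1531 lower (9.74%). A difference between the 2 responses, tested as the genotype by caerulein interaction, passed for 518 (3.3%), of which 238 (1.51%) were higher and 280 (1.78%) lower in Mist1KO. With 1 probe set a gene, the wild-type response passed for 18.7% of genes, 8.74% higher and 9.96% lower, and the difference for 3.34%, 1.48% higher and 1.87% lower. Among genes, 517 rose in both genotypes, 471 fell in both and 18 went opposite ways, so that 43.0% of the genes called in Mist1KO were called in the same direction in wild type and 55.7% of those called in wild type were so in Mist1KO. The 2 contrasts share no arrays, and across the 9481 genes, which are not independent replicates, their log2 changes had a Pearson r of 0.615.

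**Figure D2:**
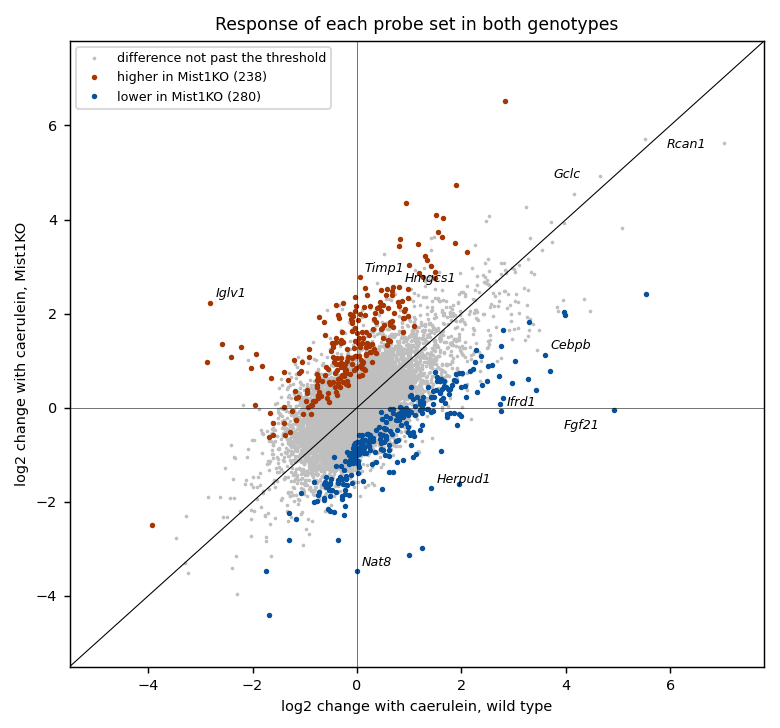
Log2 change with caerulein in wild type (horizontal) against that in Mist1KO (vertical) for each probe set tested, with the line of equal change. Orange points are the 238 probe sets whose response was higher in Mist1KO and blue points the 280 whose response was lower by the interaction test, with Fgf21 and Cebpb below the line at wild-type changes of 4.92 and 3.6 and Timp1 above it at a Mist1KO change of 2.78.

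On the calcium and calcineurin list 3 of 22 genes tested rose (13.6%) and 2 fell (9.09%), near the 10.2% and 14.0% over all genes, with a median log2 change of 0.03. Those that rose were Rcan1, Nfatc1 and Orai1, and those that fell Cckar and Nfat5. Cckar, the cholecystokinin receptor of acinar cells, fell from 4111.5, 3648.6 and 3584.9 to 1162.5, 1166.2 and 1774.4. No array of one group reached the other (-1.48 ± 0.16, adjusted p = 1.54e-05). The wild-type change was -1.99, and the difference between the genotypes did not pass (0.51 ± 0.23, adjusted p = 0.272). In bulk tissue, fewer cells of a type and less RNA per cell cannot be told apart, which holds for this and each later change of a cell type's genes.

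Nfatc1, a transcription factor that calcineurin activates, rose 4.74-fold in Mist1KO and had a wild-type change of 0.44 that did not pass. It read 223.6, 276.9 and 281.6 after saline and 1462.5, 1270.1 and 1180.8 after caerulein in Mist1KO, against 218.3, 221.8 and 235.0 and then 284.8, 385.0 and 274.8 in wild type. The Mist1KO caerulein arrays were above all other 9 arrays, and the responses differed by 1.81 ± 0.21 (adjusted p = 0.000748). Orai1, the pore of the store-operated calcium channel, showed the same order with a smaller size, a Mist1KO change of 0.93 ± 0.13 and a wild-type value of -0.35 (difference 1.28 ± 0.19, adjusted p = 0.00369). Rcan1 rose by 7.03 in wild type, and the difference of -1.40 ± 0.89 did not pass (adjusted p = 0.477).

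Immediate early genes rose in smaller number than in wild type. Of 30 tested, 10 rose and none fell in Mist1KO, with a median of 0.64, whereas 21 rose in wild type with a median of 1.35. For 5 of the 30 the response was lower in Mist1KO by the interaction test. These were Ier2, Myc, Jun, Jund and the mRNA decay factor Zfp36l1. The call for Jun was lost under 15 alternative settings, 9 of which leave out an array (adjusted p 0.0697 to 0.116). Without Mist1KO caerulein replicate 3 the count that rose was 17, and with arrays weighted by their quality it was 16.

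Egr1, a zinc finger factor induced by growth signals, read 148.4, 299.9 and 173.8 after saline and 1243.6, 1545.2 and 352.3 after caerulein. The third caerulein array lay just above the saline range, and the change of 2.05 ± 0.45 (adjusted p = 0.0041) was 2.69 without it. Ier2 read 235.5, 359.0 and 321.7 after saline and 641, 668.5 and 234.4 after caerulein. Its groups overlapped through that same array, and its change of 0.60 ± 0.32 did not pass (adjusted p = 0.196), against 3.27 in wild type (difference -2.67 ± 0.45, adjusted p = 0.00622). Without replicate 3 its Mist1KO change was 1.07 (adjusted p = 0.0032). Myc, the growth regulator, had a change of -0.48 ± 0.21 in Mist1KO (adjusted p = 0.124) and 1.21 in wild type (adjusted p of the difference 0.00774). Ier3, a survival factor induced early, rose 7.68-fold in Mist1KO and by a like amount in wild type (2.94 and 3.01 on the log2 scale).

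MAP kinase phosphatases, growth factor feedback genes, and ligands and receptors of the EGF family were read as 1 list, of which 6 of 20 rose and none fell. Btc, an EGF receptor ligand, rose 3.38-fold and Dusp16, a MAP kinase phosphatase, 3.15-fold. Hbegf, another EGF receptor ligand, read 65.5, 85.5 and 57.0 after saline and 661.2, 855.9 and 114.0 after caerulein, again with replicate 3 nearest to saline (2.30 ± 0.53, adjusted p = 0.0064, and 3.14 without it). No member of this list passed the interaction test.

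Genes of the integrated stress response rose in Mist1KO, several of them less than in wild type. Of 16 genes tested 10 rose and none fell, with a median of 1.17. In wild type 15 rose with a median of 2.60, and 5 responses were lower in Mist1KO by the interaction test. Atf4, the factor at the centre of the programme, read 606.1, 613.7 and 774.6 after saline and 2451.6, 2263.8 and 1726.4 after caerulein. All caerulein arrays were well above all saline arrays (1.66 ± 0.15, adjusted p = 2.62e-06), and the difference from wild type did not pass (-0.59 ± 0.21, adjusted p = 0.155). Cebpd, Cebpg and Atf5, leucine zipper partners of the same programme, rose 7.79-fold, 2.5-fold and 2.31-fold, with differences from wild type between -0.29 and -0.01 that did not pass. Trib3, a pseudokinase that restrains ATF4, rose 2.69-fold, and Ddit3, which encodes CHOP, had overlapping groups at 57.8 to 139.3 and 65.7 to 106.6.

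The promoters of 4 of these and related genes are shown because each carries the same letters of an ATF4 and C/EBP composite element, while their genes rose, fell or did not pass in Mist1KO. The element searched was TGATGNAA on both strands, and its match is in capitals. The windows run from 250 bases before to 50 bases after the RefSeq start site on GRCm38.p6, and 3.97% of 32851 such windows hold a match. The windows and the element were picked after the values and the matches had been seen, and a match is a description, not a bound site. Atf3 lies at chr1:191183284-191183583 on the minus strand, Chac1 at chr2:119350992-119351291 on the plus strand, Fgf21 at chr7:45615441-45615740 on the minus strand and Herpud1 at chr8:94386179-94386478 on the plus strand. The first base of the match is at -110 in Atf3, -193 in Chac1, -139 in Fgf21 and -112 in Herpud1.
Atf3: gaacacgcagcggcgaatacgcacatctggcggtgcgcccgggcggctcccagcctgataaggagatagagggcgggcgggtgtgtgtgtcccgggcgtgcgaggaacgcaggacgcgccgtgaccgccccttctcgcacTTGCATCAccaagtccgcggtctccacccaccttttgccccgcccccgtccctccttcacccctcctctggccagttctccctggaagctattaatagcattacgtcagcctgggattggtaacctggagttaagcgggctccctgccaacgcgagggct
Chac1: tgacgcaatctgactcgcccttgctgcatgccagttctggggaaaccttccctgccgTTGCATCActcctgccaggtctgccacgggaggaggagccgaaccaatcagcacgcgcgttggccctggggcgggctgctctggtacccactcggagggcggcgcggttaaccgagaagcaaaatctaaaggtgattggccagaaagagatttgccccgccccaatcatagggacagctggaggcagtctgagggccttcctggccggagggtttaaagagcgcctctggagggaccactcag
Fgf21: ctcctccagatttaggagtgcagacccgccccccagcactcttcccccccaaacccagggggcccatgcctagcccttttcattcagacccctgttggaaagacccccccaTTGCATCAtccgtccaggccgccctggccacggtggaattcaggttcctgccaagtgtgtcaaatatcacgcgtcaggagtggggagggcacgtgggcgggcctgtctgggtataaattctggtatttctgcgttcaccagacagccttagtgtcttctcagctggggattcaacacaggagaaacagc
Herpud1: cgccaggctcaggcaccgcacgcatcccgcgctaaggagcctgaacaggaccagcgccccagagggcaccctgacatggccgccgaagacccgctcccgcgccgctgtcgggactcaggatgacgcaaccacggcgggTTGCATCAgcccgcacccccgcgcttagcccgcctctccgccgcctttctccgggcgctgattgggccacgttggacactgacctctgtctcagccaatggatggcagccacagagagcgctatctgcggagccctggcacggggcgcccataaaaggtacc

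Atf3, a stress-induced repressor, read 68.9, 104.2 and 103.8 after saline and 877.7, 871 and 183.8 after caerulein in Mist1KO, against 2324.6 to 3618.3 in the wild-type caerulein arrays. The first and second Mist1KO caerulein arrays were high and the third lay nearer to saline, above its highest array. The change was 2.31 ± 0.46 (adjusted p = 0.00221), or 3.03 without that array, and the difference from wild type did not pass (-2.04 ± 0.65, adjusted p = 0.114). Chac1, which degrades glutathione, read 172.5, 204.9 and 213.8 after saline and 935.4, 1380.8 and 423.3 after caerulein. The groups did not overlap, and the Mist1KO change of 1.96 ± 0.33 (adjusted p = 0.000571) was smaller than the wild-type one of 3.98. That difference of -2.01 ± 0.46 passed (adjusted p = 0.0315) but was lost under 10 alternative settings, 8 of them the omission of a single array other than Mist1KO caerulein replicates 2 and 3 and wild-type saline replicate 2 and caerulein replicate 1, with adjusted p from 0.0547 to 0.0782.

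Fgf21, a stress and fasting hormone that ATF4 is known to induce, showed no detectable difference in Mist1KO. It read 7.9, 8.9 and 14.7 after saline and 7.8, 8.5 and 12.6 after caerulein, below the added 18.7 in every array. Wild type went from 12.6, 21.8 and 18.7 to 485.6, 1935.2 and 1317.9. The wild-type caerulein arrays stood alone above the other 9, and the responses differed by -4.96 ± 0.53 (adjusted p = 0.000466), a call kept under every alternative setting.

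Herpud1, an ER membrane protein of the degradation machinery, went in opposite directions in the 2 genotypes. In Mist1KO it read 3630.2, 2592.7 and 2829.9 after saline and 814.5, 791.2 and 1117.8 after caerulein, a 3.28-fold fall (-1.72 ± 0.21, adjusted p = 5.24e-05). In wild type it went from 3771.4, 2996.4 and 1926.6 up to 7342.2, 8000.1 and 7074. Saline levels of the genotypes overlapped, whereas their caerulein levels were wide apart. The responses differed by -3.13 ± 0.30 (adjusted p = 0.000243), its second probe set fell by 1.63 in Mist1KO, and the call held under every alternative.

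Further genes of the programme showed the same pattern of a smaller Mist1KO response. Cebpb, a leucine zipper factor, read 50.2, 96.6 and 79.4 after saline and 185.8, 231.2 and 140.4 after caerulein in Mist1KO, against 1755.7 to 2059.9 in wild-type caerulein arrays. It rose 2.19-fold in Mist1KO and by 3.6 on the log2 scale in wild type (difference -2.47 ± 0.32, adjusted p = 0.00168). Ppp1r15a, which directs the phosphatase that reverses eIF2α phosphorylation, read 296.8, 270.9 and 156.1 after saline and 201.4, 224.7 and 121.9 after caerulein. Its Mist1KO groups overlapped, and its responses differed by -2.28 ± 0.39 (adjusted p = 0.00638). Sesn2, a sestrin under ATF4 control, had a Mist1KO change of 0.37 ± 0.37 (adjusted p = 0.514) and a wild-type change of 3.44 (difference -3.07 ± 0.52, adjusted p = 0.00622). Without Mist1KO caerulein replicate 3 its Mist1KO change was 0.87 (adjusted p = 0.0386).

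**Figure D3:**
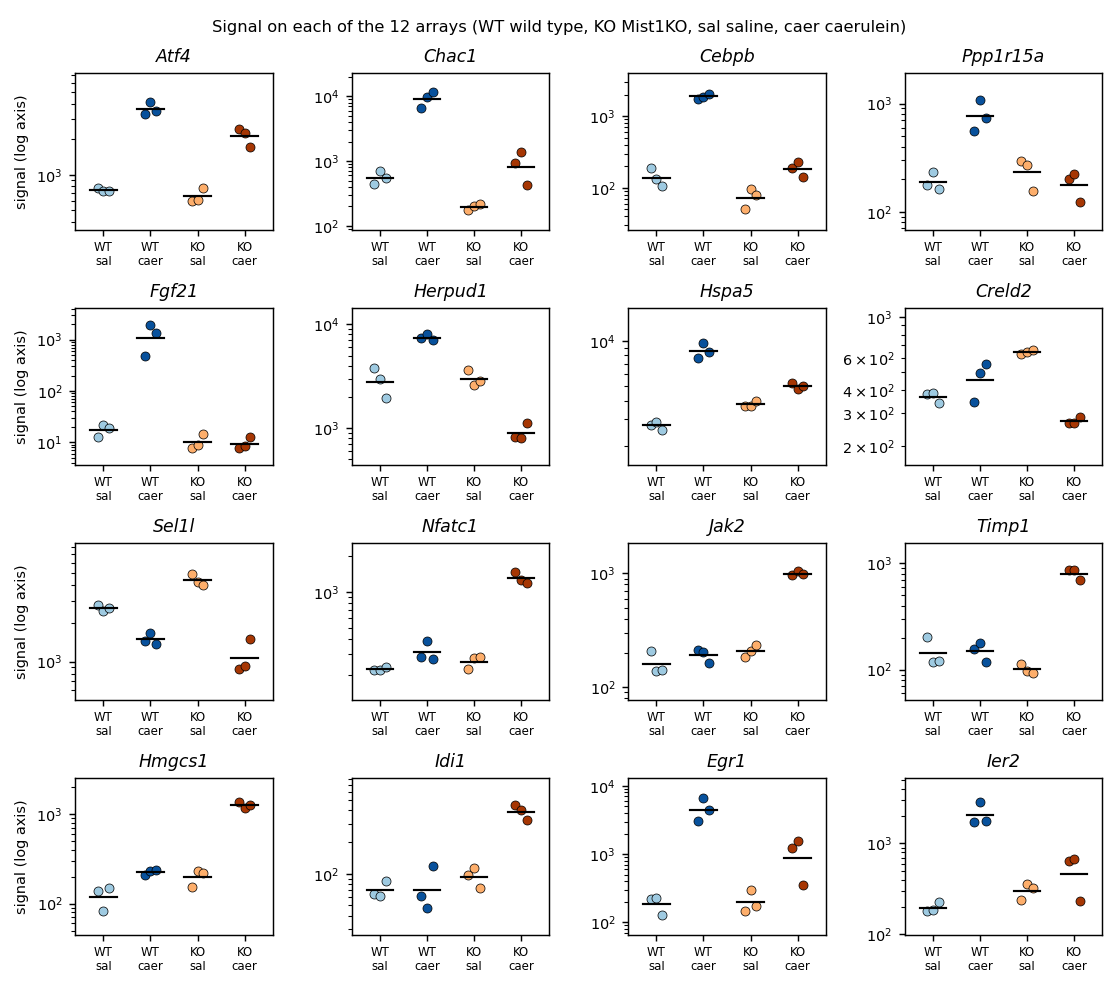
Signal on a log axis in each of the 12 arrays for 16 genes, by genotype and treatment, with a line at the geometric mean of each group. In Fgf21, Herpud1, Cebpb and Ppp1r15a the wild-type caerulein arrays lie above the other 9, and in Nfatc1, Jak2, Timp1, Hmgcs1 and Idi1 the Mist1KO caerulein arrays do.

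Several amino acid genes rose too. On the list of synthesis and transport genes, 9 of 20 rose and 2 fell in Mist1KO, with a median of 0.50. In wild type 17 rose and none fell, and 8 responses were lower in Mist1KO. Psat1, of serine synthesis, rose 5.67-fold, the arginine and lysine transporter Slc7a3 3.65-fold, and the cystine transporter Slc7a11 3.23-fold. Asns, asparagine synthetase, read 1794.3, 1795.5 and 1582.2 after saline and 2406.3, 2684.7 and 2551.6 after caerulein. Its groups were apart by a modest step (0.56 ± 0.12, adjusted p = 0.00299), like that of wild type (0.78).

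Genes of sulphur and glycine handling included the 2 that fell. Cbs, cystathionine beta-synthase, fell from 730.2, 840.4 and 931.2 to 338.9, 361.3 and 396.1 in Mist1KO, while the wild-type change was -0.04 (difference -1.11 ± 0.18, adjusted p = 0.0058). That difference was -0.78 (adjusted p = 0.0765) as a mean over its probe sets. Slc6a9, the glycine transporter GlyT1, fell 2.21-fold with a wild-type change of 0.01 (difference -1.15 ± 0.18, adjusted p = 0.00495). Cth, the next enzyme after Cbs, rose 1.72-fold in Mist1KO and by 2.16 on the log2 scale in wild type (difference -1.37 ± 0.21, adjusted p = 0.0038).

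Aminoacyl-tRNA synthetases rose in 8 of 18 cases and fell in 2, with a median of 0.24. Cars, for cysteine, rose 2.47-fold, Nars, for asparagine, 2.26-fold, and Aars and Gars, for alanine and glycine, 2-fold and 1.99-fold. Wars, for tryptophan, fell 1.89-fold on its brightest probe set and by 0.84 to 0.90 on its other 3. The list had 11 that rose and none that fell in wild type, and the 2 lower responses in Mist1KO were Farsb and Rars.

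Most ER folding genes fell in Mist1KO pancreas. Of 24 ER chaperones and disulfide isomerases 14 fell and 3 rose, with a median of -0.57 against -0.14 over all genes. Of 22 ER stress sensors and degradation factors 11 fell and none rose, with a median of -0.40. In wild type the counts were 6 that fell and 2 that rose, and 5 that fell and 1 that rose. The interaction test called 4 chaperones and 6 degradation factors, each lower in Mist1KO. The chaperones were Hspa5, Creld2, Dnajc3 and Ero1b, and the factors Herpud1, Sel1l, Selenos, Mbtps1, Edem1 and Edem2. The array median and the spikes given above moved in the same direction as these falls, and their part was not tested.

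The promoters of Hspa5 and Creld2 are shown because both hold the ER stress response element (CCAAT, then any 9 bases, then CCACG), bound by NF-Y and ATF6, and their genes moved in opposite directions. The windows were picked as above. The element occurs on either strand in 0.119% of the windows, and in 8 of the 20 listed chaperone genes that have a window. Hspa5 lies at chr2:34771840-34772139 and Creld2 at chr15:88819396-88819695, both on the plus strand of GRCm38.p6. The match, in capitals, starts at -65 in Hspa5 and at -126, on the other strand, in Creld2. The window of Herpud1 shown earlier has no match to these letters, and no other form of the element was searched.
Hspa5: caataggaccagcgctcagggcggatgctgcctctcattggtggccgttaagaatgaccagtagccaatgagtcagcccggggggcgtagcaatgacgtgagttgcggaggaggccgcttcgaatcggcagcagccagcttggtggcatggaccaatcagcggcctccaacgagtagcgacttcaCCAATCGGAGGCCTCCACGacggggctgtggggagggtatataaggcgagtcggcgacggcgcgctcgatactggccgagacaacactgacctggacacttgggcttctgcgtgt
Creld2: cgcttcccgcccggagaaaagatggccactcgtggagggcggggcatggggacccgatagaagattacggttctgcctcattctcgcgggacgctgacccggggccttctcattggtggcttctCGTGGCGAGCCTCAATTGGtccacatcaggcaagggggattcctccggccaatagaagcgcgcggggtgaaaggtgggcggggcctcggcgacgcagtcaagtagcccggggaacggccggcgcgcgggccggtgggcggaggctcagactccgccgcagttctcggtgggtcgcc

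Hspa5, the main ER chaperone BiP, read 3705.4, 3694.2 and 4003.9 after saline and 5250, 4774.4 and 4982.7 after caerulein in Mist1KO. Wild type went from 2776.4, 2869.7 and 2572.2 to 7622, 9618.7 and 8419. The Mist1KO groups did not overlap but were close, a 1.31-fold rise (0.39 ± 0.11, adjusted p = 0.0194). That rise missed the threshold without Mist1KO saline replicate 1 (0.0637), saline replicate 2 (0.068) or caerulein replicate 1 (0.0824), and without the intensity trend (0.0534). The difference from wild type, -1.24 ± 0.16 (adjusted p = 0.00155), held under every alternative.

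Creld2, a disulfide isomerase partner, read 631.2, 647.2 and 664.8 after saline and 265.7, 265.1 and 287.7 after caerulein in Mist1KO. In wild type it was 340.1 to 385.1 after saline and 345.3 to 551.9 after caerulein. The Mist1KO fall was 2.29-fold with very little spread within groups (-1.19 ± 0.15), and the responses differed by -1.49 ± 0.21 (adjusted p = 0.00317). Pdia3 and Dnajb11, an isomerase and a BiP cochaperone, fell 2.57-fold and 2.76-fold, and their differences from wild type of 0.14 and -0.62 did not pass. Ero1b, an oxidase of disulfide formation abundant in secretory cells, fell 3.03-fold. The related Ero1a rose 2.34-fold on its brightest probe set, while its other 2 had log2 changes of -0.32 and -0.19, so that the mean over its probe sets did not pass (0.24, adjusted p = 0.156).

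Sensors and degradation factors fell with them. Sel1l, the scaffold of the ER degradation complex, went from 4908.6, 4232.1 and 3979.5 to 877.8, 924.3 and 1515.1. All caerulein arrays were below all saline arrays, a 4.01-fold fall (adjusted p = 2.41e-06) seen on its other 3 probe sets too. Selenos fell 2.37-fold, and the sensor Atf6 2.24-fold from 382.3 to 397.1 after saline to 159.1 to 166.9 after caerulein. Xbp1, the factor spliced by IRE1, had a change of 0.00 (SE 0.12) on its brightest probe set. Of its other 3 probe sets none passed, with changes from -0.69 to 0.27, and spliced and unspliced forms are not told apart by these values. The sensor kinases Ern1 and Eif2ak3 had changes of -0.31 and 0.36 that did not pass, although 2 dimmer probe sets of Eif2ak3 read 0.95 and 1.93 higher and their mean passed (1.08, adjusted p = 0.00142).

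Genes of translocation into the ER and of vesicle coats fell in 23 of 38 cases and none rose, with a median of -0.42. Sec62, a translocon subunit, fell from 2011.1, 2115.5 and 2220 to 637.6, 510.8 and 652, a 3.47-fold change (adjusted p = 2.61e-07). It fell on all 4 of its probe sets. Lman1 and Tmed10, cargo receptors between ER and Golgi, fell 2.21-fold and 2.17-fold. Wild-type counts were 12 that fell and none that rose, and only the response of Srp68 was called different. The Mist1KO count was 11 after median centring, 14 without Mist1KO saline replicate 1 or 3 and 15 without caerulein replicate 1 or 2.

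Digestive enzyme mRNAs were lower after caerulein on the deposited scale, by an amount that moved with the scaling. Of 19 enzymes and inhibitors tested 17 fell and none rose, with a median of -0.59. Prss2, a trypsinogen, read 19480.1, 22124.1 and 18547.7 after saline and 12810.4, 11251.8 and 16856.1 after caerulein. Cpa1, carboxypeptidase A1, read 14122.9, 15662.4 and 12942.6 and then 8627.6, 7158.7 and 11430.1. In both genes caerulein replicate 3 came closest to saline and the groups did not overlap. Their changes were -0.57 ± 0.19 (adjusted p = 0.0381) and -0.67 ± 0.19 (adjusted p = 0.0197).

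These calls were not stable. The count was 5 after median centring, 5 after quantile normalization, under which the value of Prss2 was 0.00, and 5 without the filter on dim probe sets. The same count was 5 and 6 without Mist1KO saline replicates 1 and 2, and 5 and 3 without caerulein replicates 1 and 2. Prss2 and Cpa1 missed the threshold without Mist1KO saline replicate 1 (adjusted p 0.0788 and 0.0523), saline replicate 2 (0.135 and 0.0788), caerulein replicate 1 (0.121 and 0.0674) or caerulein replicate 2 (0.154 and 0.0943), and Prss2 also without Mist1KO saline replicate 3 (0.0647) or wild-type saline replicate 1 (0.0509). The spikes given above differed by -0.95 on the log2 scale, against a median of -0.59 and a lowest value of -0.995 over the enzymes. The 50 brightest probe sets held 13.4% ± 0.808 (SD, n = 3) of the summed signal after saline and 9.70% ± 1.54 after caerulein. The part of either in the enzyme values was not tested. Amy1, an amylase whose signals were low beside those of Prss2 and Cpa1, fell 1.99-fold from 565.7 to 645.7 to 263.8 to 350, and Ctrc, a chymotrypsin that degrades trypsinogen, fell 1.55-fold in Mist1KO and was the 1 enzyme to fall in wild type. Spink1, the trypsin inhibitor, and Prss3 did not pass, with changes of -0.39 and 0.48. No enzyme differed between the genotypes by the interaction test.

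**Figure D4:**
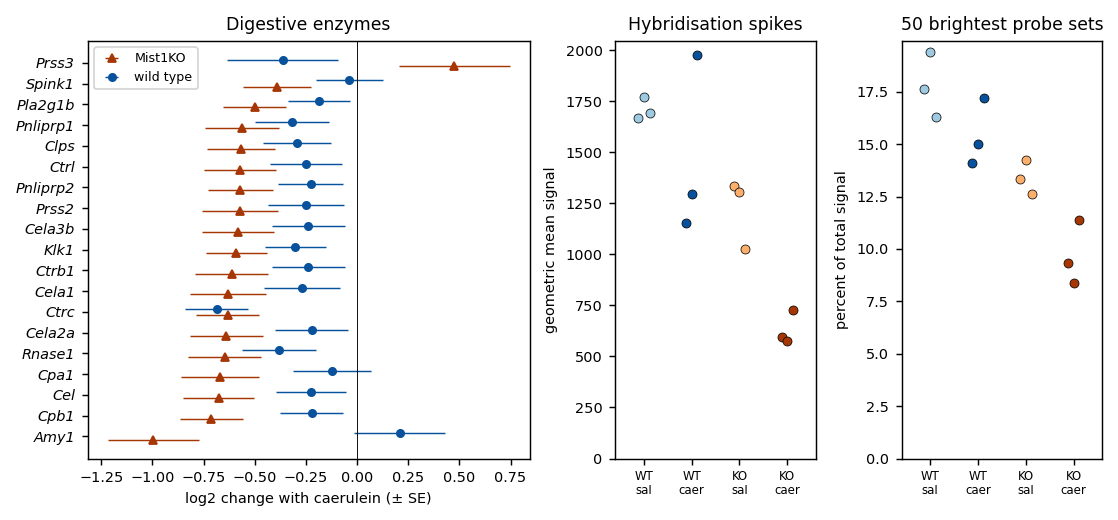
Left, log2 change with caerulein (points, bars ± SE) of the 19 digestive enzymes and inhibitors tested in Mist1KO (triangles) and wild type (circles). Middle and right, the geometric mean of the hybridisation spikes and the share of signal in the 50 brightest probe sets on each of the 12 arrays, both lowest in the 3 Mist1KO caerulein arrays.

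Of 20 granule and exocytosis genes tested 4 rose (20%, against 10.2% over all genes) and 4 fell (20%, against 14.0%). Members of the Rab family were on both sides. The membrane fusion protein Stx3 rose 2.82-fold and the syntaxin partner Stxbp3 1.81-fold, and Rab27b, a secretory GTPase, and Tpd52 rose by 0.79 and 0.56 on the log2 scale. Zg16, Gp2 and Sycn, abundant proteins of the granule content and membrane, fell by 0.68, 0.62 and 0.55, and all 3 calls were lost under quantile normalization and without Mist1KO saline replicate 2, caerulein replicate 1 or caerulein replicate 2 (adjusted p 0.0596 to 0.151 without an array). Gp2 and Sycn were also lost without saline replicate 1 (0.0523 and 0.0846) and Sycn without saline replicate 3 (0.0522). The small GTPase Rab3d, a known Mist1 target on granules, fell 1.39-fold (adjusted p = 0.00927, and 0.0614 after median centring). Of the 10 tested genes that earlier work ties to Mist1, 3 fell (30%, against 14.0% over all genes) and none rose. The 3 were Cckar, Serpini2 and Rab3d.

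Of 10 Reg family and acute pancreatitis genes tested 3 fell (30%, against 14.0% over all genes) and 1 rose (10%, against 10.2%). The 3 that fell were secreted Reg proteins, lectin-like products of the injured pancreas. In wild type 5 fell and 1 rose, with a median of -0.72 against -0.25 in Mist1KO. Reg1, Reg2 and Reg3d fell by 0.65, 0.65 and 0.59 from signals of 7184.3 and above. The calls of Reg1 and Reg2 were lost under quantile normalization and without Mist1KO saline replicate 2 (adjusted p 0.0646 and 0.0542) or caerulein replicate 2 (0.0695 and 0.0667). Lcn2, lipocalin-2, an acute phase protein of epithelia, was the 1 of 10 to rise, from 97.2, 82.5 and 51.5 to 412.6, 516.9 and 744.8. The groups were wide apart (2.58 ± 0.36, adjusted p = 0.000143). Reg3g overlapped between the Mist1KO groups, at 485.2, 377.7 and 181.1 and then 617.5, 382.6 and 1174.6, while it fell in wild type by 2.87. The difference of 3.85 ± 0.79 passed (adjusted p = 0.0176), but not without Mist1KO saline replicate 3 (adjusted p = 0.0508), and was 4.44 without wild-type caerulein replicate 1.

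Cytokine receptor and STAT genes rose in 12 of 23 cases, with 1 fall and a median of 0.46. Jak2, the kinase of several cytokine receptors, went from 184, 209.1 and 232.7 to 961.6, 1040.8 and 982.6 in Mist1KO. In wild type it was 136.9 to 206 after saline and 163.5 to 209.6 after caerulein. The Mist1KO caerulein arrays stood alone, and the responses differed by 1.92 ± 0.23 (adjusted p = 0.000913). Il4ra, the interleukin 4 receptor chain, rose 5.25-fold from 8.9 to 28.9 up to 171.1 to 190.5, with a wild-type change of 0.20 (difference 2.19 ± 0.35, adjusted p = 0.00492, and 0.0674 as a mean over its probe sets). Osmr, the oncostatin M receptor, and Socs2 rose in both genotypes, 5.53-fold and 4.38-fold in Mist1KO.

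Of 23 NF-kB genes tested 5 rose (21.7%, against 10.2% over all genes) and none fell, and 9 more, Il6 and Ccl20 among them, were below the filter. The 5 were the subunits Rela and Relb and the IkB family members Nfkbia, Nfkbib and Nfkbiz. Rela, the p65 subunit, rose 2.45-fold from 616 to 748.2 up to 1514.1 to 1797.7 (adjusted p = 8.69e-06), with a wild-type change of 1.74. Relb rose by 1.75, Nfkbib by 1.10 and Nfkbiz by 0.91. Nfkbib missed the threshold without Mist1KO saline replicate 1, caerulein replicate 1 or caerulein replicate 2 (adjusted p 0.139, 0.0986 and 0.0839), and Nfkbiz without saline replicate 2 or caerulein replicate 2 (0.0576 and 0.0715). The cytokine mRNAs Ccl2, Cxcl2 and Il1b had changes of 0.05, 0.77 and 0.15 that did not pass. The inhibitor Nfkbia was called higher by 0.34 (adjusted p = 0.049), a call lost under 15 alternatives and without any 1 of the Mist1KO arrays (adjusted p 0.0553 to 0.152), but it fell in wild type by 0.72 and the difference of 1.06 ± 0.16 passed (adjusted p = 0.0042). The count of 5 was 3 without Mist1KO saline replicate 1, saline replicate 2 or caerulein replicate 1, and 2 without caerulein replicate 2.

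Timp1, a secreted inhibitor of metalloproteinases, rose 6.87-fold in Mist1KO and had a wild-type change of 0.05. It read 112, 96.9 and 93.6 after saline and 858.4, 863.4 and 692.1 after caerulein in Mist1KO, and 119.1 to 204.1 and then 117.4 to 177.8 in wild type. Groups overlapped in wild type and were wide apart in Mist1KO (2.78 ± 0.20, adjusted p = 5.27e-07). The responses differed by 2.73 ± 0.28 (adjusted p = 0.000406).

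Genes of epithelial structure rose together. Of 5 simple epithelial keratins tested 4 rose and none fell, with a median of 2.86. Krt18 went from 1026.6, 1218.2 and 1122.4 to 7814.3, 7335.8 and 9831.3, and Krt8, its partner, from 1894.6, 985.9 and 879 to 8057.8, 8270.9 and 10299.2. They rose 7.27-fold and 7.37-fold with no overlap, and the differences from wild type of 0.01 and -0.44 did not pass. Krt19 went from 64.8, 49.5 and 54.6 to 916.9, 1055 and 585.9 in Mist1KO, against 290.7 to 373.1 in wild-type caerulein arrays. Its rise was larger in Mist1KO by 1.62 ± 0.30 (adjusted p = 0.0113).

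Junction genes rose in 16 of 26 cases and fell in 2, with a median of 1.02. Gjb2, a gap junction connexin, rose 7.64-fold from 142.7 to 176.5 up to 1293.4 to 1386.1 (adjusted p = 9.54e-08). Cdh1, E-cadherin, rose 5.17-fold, the adhesion molecule Epcam 4.56-fold and the desmosome protein Dsp 4.46-fold, with differences from wild type between -0.55 and 0.35 that did not pass. Cldn18 rose 2.36-fold in Mist1KO with a wild-type change of -0.19 (difference 1.43 ± 0.28, adjusted p = 0.0155). Cldn8 and Cldn10 fell 3.74-fold and 3.05-fold. Claudins thus moved in both directions within the same arrays.

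Of 30 actin cytoskeleton and injury genes 24 rose and none fell, with a median of 1.45. Zyx, a focal adhesion protein, went from 341.3, 331.8 and 260.2 to 2417.2, 2847.1 and 1591.6. The groups were wide apart, a 6.84-fold rise (2.77 ± 0.21, adjusted p = 9.04e-07). Anxa2, a membrane-binding annexin, rose 4.18-fold from 739.9 to 819.3 up to 3285.3 to 3426.7, more than in wild type by 1.17 ± 0.18 (adjusted p = 0.0039), although its dimmer probe set had a value of 0.12 and the difference from wild type did not pass as a mean over both (0.44, adjusted p = 0.623). Actg1, cytoplasmic gamma actin, rose 2.48-fold in Mist1KO and by 2.76 on the log2 scale in wild type (difference -1.45 ± 0.26, adjusted p = 0.00863). Actb rose 1.72-fold on its brightest probe set while its other read -0.58, the mean of both did not pass (0.10, adjusted p = 0.762), and the 3' to 5' ratio of the Actb control moved between the groups as given above.

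**Figure D5:**
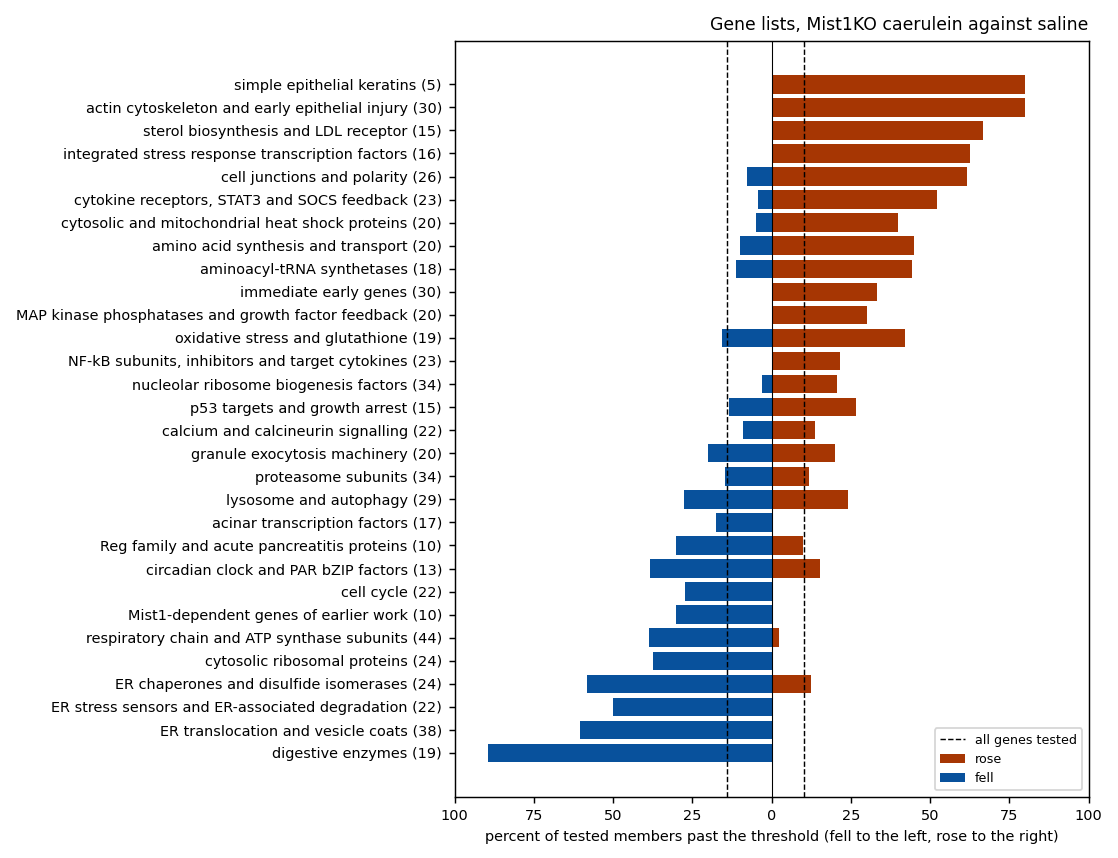
Percent of the tested members of 30 gene lists that rose (right) or fell (left) with caerulein in Mist1KO, with the number tested in parentheses. Dashed lines mark the share of all genes tested, 10.2% higher and 14.0% lower, and keratins, actin genes, sterol genes and the integrated stress response lie farthest to the right and the digestive enzymes farthest to the left.

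Sterol synthesis genes rose in Mist1KO and less so in wild type. Of 15 tested 10 rose and none fell, with a median of 0.65, against 5 that rose and 2 that fell in wild type with a median of -0.11. For 5 of the 15 the response was higher in Mist1KO. Hmgcs1, HMG-CoA synthase at the entry to the pathway, went from 154, 234.4 and 222.9 to 1381.9, 1182.9 and 1270.2, and from 83.0 to 150.2 up to 208.7 to 236.3 in wild type. The Mist1KO caerulein arrays stood alone at 5.9-fold above saline (2.56 ± 0.19, adjusted p = 6.88e-07), and the responses differed by 1.75 ± 0.27 (adjusted p = 0.0042). Idi1, an isomerase of the same pathway, rose 3.63-fold with a wild-type change of 0.03 (difference 1.83 ± 0.36, adjusted p = 0.0149). Msmo1 and Cyp51, later enzymes, rose 3.92-fold and 3.73-fold, and their differences from wild type did not pass.

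The promoter of Hmgcs1 is shown as the member of this list whose window held the sterol regulatory element letters TCACNCCAC, which occur on either strand in 1.24% of the windows and in 1 of the 11 listed genes with a window. It lies at chr13:119690101-119690400 on the plus strand of GRCm38.p6, with the match in capitals from -137. Srebf2, which encodes the factor that binds such elements, had a change of -0.18 ± 0.14 (adjusted p = 0.417) on its brighter probe set and of 0.91 on its other.
Hmgcs1: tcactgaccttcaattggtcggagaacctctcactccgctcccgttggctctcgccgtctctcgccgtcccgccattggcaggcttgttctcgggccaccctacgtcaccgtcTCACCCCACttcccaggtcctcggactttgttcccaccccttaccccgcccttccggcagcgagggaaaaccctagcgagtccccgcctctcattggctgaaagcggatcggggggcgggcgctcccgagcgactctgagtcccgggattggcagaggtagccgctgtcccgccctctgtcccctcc

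Stress genes outside the ER rose in part. Of 20 heat shock genes 8 rose and 1 fell in Mist1KO, with a median of 0.47, and 11 rose and 1 fell in wild type. Hspa4l, a cytosolic cochaperone of the Hsp110 family, rose 7.09-fold, Dnajb1 3.15-fold and Hspb1 2.46-fold. The count of 8 was 5 without Mist1KO saline replicate 3. Of 19 oxidative stress genes 8 rose and 3 fell. Besides Gclc, Srxn1, which restores peroxiredoxins, rose 6.25-fold and Hmox1, heme oxygenase, 5.06-fold from 11.9 to 39.0 up to 204.4 to 212.3, while Cat, catalase, fell 2.95-fold.

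Hspa9, the main chaperone of mitochondria, had a Mist1KO change of 0.43 ± 0.15 (adjusted p = 0.0526) against 1.71 in wild type (difference -1.28 ± 0.22, adjusted p = 0.00622). Growth arrest genes rose in 4 of 15 cases (26.7%) and fell in 2 (13.3%), against 10.2% and 14.0% over all genes. Cdkn1a, the cell cycle inhibitor p21, rose 3.12-fold, and Plk2 fell 3.84-fold. Trp53inp1, a p53-induced stress protein, read 851.5, 532.5 and 373.8 after saline and 1423.6, 1537.6 and 401.4 after caerulein. Its groups overlapped through replicate 3, its change of 0.77 ± 0.39 did not pass (adjusted p = 0.175) and was 1.39 without that array (adjusted p = 0.000908), and the responses differed by -2.92 ± 0.55 (adjusted p = 0.0119), or -2.31 without that array.

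Housekeeping groups moved by small steps that the scaling touched. Of 24 ribosomal protein genes 9 fell and none rose, with a median of -0.35, and none was called after median centring, 4 without Mist1KO saline replicate 1 or 2 or caerulein replicate 2 and 14 with array weights. Of 44 respiratory chain and ATP synthase genes 17 fell and 1 rose with a median of -0.36, and 9 or 10 fell after centring or without Mist1KO saline replicate 2 or caerulein replicate 1 or 2. Sdhd, a subunit of succinate dehydrogenase, fell 2.46-fold from 618.2 to 793.6 to 239.5 to 335.8, and Cycs, cytochrome c, rose 1.64-fold. Nucleolar factors rose in 7 of 34 cases (20.6%, against 10.2% over all genes) and fell in 1 (2.94%, against 14.0%). Ddx21, an RNA helicase, led the rises at 2.35-fold. The 7 were 3 or 4 without any 1 of Mist1KO saline replicates 2 and 3 and caerulein replicates 1 and 2. Proteasome subunits rose in 4 of 34 cases and fell in 5, near the shares of 10.2% and 14.0% over all genes. Without Mist1KO saline replicate 2 or 3 or caerulein replicate 2 the 5 were 2 or 3, and without caerulein replicate 1 the 4 were 2.

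Lysosome and autophagy genes went both ways, with 7 of 29 that rose (24.1%) and 8 that fell (27.6%). Over all genes the shares were 10.2% and 14.0%. Ctsb, cathepsin B, which can activate trypsinogen, rose 1.89-fold from 972, 1172.9 and 1112.2 to 1893.4, 2156.1 and 2147.2. Vmp1, a membrane protein of autophagosome formation, rose 3.45-fold on its brightest probe set and read 0.03 on the other. The autophagy kinase Ulk1 fell 2.89-fold and Map1lc3b 2.45-fold. The 8 falls were 4 or 5 after median centring or without Mist1KO saline replicates 1 or 3 or caerulein replicates 1 or 2.

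Clock genes fell in 5 of 13 cases (38.5%) and rose in 2 (15.4%), against 14.0% and 10.2% over all genes. The 5 were 3 without Mist1KO saline replicate 2 or caerulein replicate 1 or 2. Bhlhe40, a repressor of the clock, rose 7.34-fold, and the leucine zipper factor Tef fell 2.44-fold. Rora, a nuclear receptor of the clock, read 170.5, 174.8 and 149.4 after saline and 99.1, 98.3 and 89.1 after caerulein in Mist1KO, and 161.5 to 203.3 and then 292.2 to 361 in wild type. The 2 genotypes moved apart (difference -1.47 ± 0.20, adjusted p = 0.00243). Nfil3, a leucine zipper repressor, rose 5.37-fold in Mist1KO and by 5.53 on the log2 scale in wild type (difference -3.10 ± 0.60, adjusted p = 0.0141, and 0.109 with 1 added before the log2). Cell cycle genes fell in 6 of 22 cases (27.3%, against 14.0% over all genes) and none rose. Only 1 or 2 cell cycle genes fell after centring, after quantile normalization or without any 1 of the Mist1KO saline arrays or caerulein replicate 2. Among them Ccnd2, a D cyclin, fell 1.86-fold in Mist1KO and rose by 0.50 in wild type (difference -1.39 ± 0.21, adjusted p = 0.00395).

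Acinar transcription factors fell in 3 of 17 cases (17.6%, near the 14.0% over all genes) and none rose. Rbpjl, the acinar partner of Ptf1a, fell 2.36-fold on its brightest probe set (-1.24 ± 0.20, adjusted p = 0.000426), and its other read 0.20. Ptf1a read 1508.6, 1220.6 and 1349.8 after saline and 1276.9, 1203.9 and 943.4 after caerulein. These groups overlapped, and the change of -0.26 ± 0.16 did not pass (adjusted p = 0.288). Nr5a2, a nuclear receptor of acinar cells, had a change of 0.02 ± 0.18 in Mist1KO that did not pass and fell by 1.40 in wild type, from 680.5 to 799 to 225.4 to 294.6. That difference of 1.42 ± 0.25 passed (adjusted p = 0.00749).

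Genes that an earlier account of these arrays had named for their level in unstimulated Mist1KO pancreas moved in 7 of 16 cases. Of the 16, 2 rose (12.5%) and 5 fell (31.25%), against 10.2% and 14.0% over all genes. Besides Hpgd, the intrinsic factor gene Cblif fell 2.81-fold, the chromatin remodeller Smarca1 2.8-fold and Moxd1 2.33-fold. Their wild-type changes lay between -0.23 and -0.07, and their differences of -1.36, -1.25 and -1.15 missed the threshold (adjusted p 0.0624 to 0.075). Qtrt1, a tRNA-modifying enzyme, rose 3.3-fold.

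Markers of the cell types in the tissue were read to see what else moved with treatment. Acinar markers fell in 9 of 11 cases with a summed signal of 124058 to 144435 after saline and 70970 to 110672 after caerulein, a count that was 1 to 3 under median centring, quantile normalization, no filter on dim signals or omission of Mist1KO saline replicates 1 or 2 or caerulein replicates 1 or 2. Duct markers rose in 2 of 8, Krt19 and the bicarbonate transporter Slc4a4 (5.08-fold), with a summed signal of 1922 to 2137 and then 2839 to 3051. Mean signals went from 56.3 to 852.6 for Krt19 and from 39.1 to 238.8 for Slc4a4. Of the other 6, Sox9 and Car2 read higher and Muc1, Aqp1, Ambp and Tspan8 lower, and none passed. The rise of the sum was thus that of Krt19 and Slc4a4 for the most part. Cftr and Krt7 were below the filter. Islet markers fell in 1 of 11 (Iapp, 1.45-fold, 9.09%) and fibroblast markers in 3 of 19 (15.8%). Endothelial markers fell in 1 of 14 (Tek, 7.14%), adipocyte markers in 1 of 5 (Lpl, 20%) and red blood cell markers in none of 3. Over all genes 14.0% fell, so these small counts do not set the markers apart.

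Of 20 neutrophil and macrophage markers 1 rose (5%, against 10.2% over all genes) and none fell. Their summed signal was 2313 to 3806 after saline and 2914 to 3129 after caerulein. The neutrophil markers S100a9, Camp, Cxcr2 and Itgam were below the filter, and S100a8, Mpo and Ltf had changes of 0.64, 0.14 and 0.04 that did not pass. Without Mist1KO saline replicate 2 the change of S100a8 was 1.28 (adjusted p = 0.0515). The 1 that rose was Cd14, the endotoxin co-receptor, from 62.6, 99 and 45.3 to 296.2, 349 and 323.1 (4.01-fold, adjusted p = 5.4e-05). Whether it came from white blood cells or from epithelium was not tested.

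Antibody genes were called higher in Mist1KO by the interaction test, with levels that were spread widely within groups. Iglv1, a lambda light chain, read 7.5, 67.5 and 13.2 after saline and 154.3, 131.3 and 271.5 after caerulein in Mist1KO, and 551.8, 67.2 and 201.8 and then 12.9, 5.1 and 22.4 in wild type. Mist1KO went up (2.24 ± 0.58, adjusted p = 0.0117, and 0.0539 without Mist1KO saline replicate 1) while wild type went down by 2.82, a difference of 5.05 ± 0.82 (adjusted p = 0.00495) that was 4.37 without wild-type saline replicate 1 and 5.73 without wild-type saline replicate 2. Jchain, which joins secreted antibodies, showed the same crossing, with changes of 1.35 and -2.59 and a difference of 3.94 ± 0.65 (adjusted p = 0.0057), or 4.54 without wild-type saline replicate 2. Its Mist1KO rise (adjusted p = 0.047) was lost under 10 alternatives, among them the omission of Mist1KO saline replicate 1 (0.139) or 3 (0.152), caerulein replicate 2 (0.0895) or 3 (0.173), or wild-type caerulein replicate 1 (0.0559) or 3 (0.0538). Of all 16 lymphocyte and plasma cell markers tested, 2 rose (12.5%, near the 10.2% over all genes) and none fell in Mist1KO. In wild type none rose and 5 fell. The summed signal of the list was 2784 to 5936 and then 4739 to 7328 in Mist1KO. For wild type it was 3740 to 6463 and then 2441 to 3061. The number of such cells in each piece of tissue was not measured, and its part in these values was not tested.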

How the data were processed

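Total RNA of 12 mouse pancreata, about 10 µg each, was hybridised to Affymetrix arrays. The deposited table holds 1 linear signal intensity per probe set and array, and the authors' scaling is read from the values, whose trimmed means (2% cut from each end) agree across arrays. The sources used here do not name the summarising software. The number of arrays, 3 a group, limits the precision.

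Intensities were taken to log2(value + 18.7), 18.7 being the 20th percentile of all values. The 64 control probe sets and those with a mean at or below the 30th percentile were left out. One limma 3.58.1 model (R 4.3.3), with a mean for each of the 4 groups and an intensity trend in the variance (8 residual and 5.75 prior degrees of freedom), gave both caerulein responses and their difference, two-sided, with Benjamini-Hochberg adjustment over 15716 probe sets and a threshold of 0.05. On simulated data with 200 changed probe sets of 15716, the Mist1KO comparison recovered 57% of changes of 1 and 88% of changes of 2 on the log2 scale, with 6 false calls. The simulated errors were independent and normal. The real comparison called 24.0% of probe sets, a far larger share, so these rates need not hold for it.

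Each gene was read from its brightest probe set. The platform annotation gave 1 symbol for 20240 probe sets, several for 682 and none for 1530. Of 964 listed symbols 830 matched and 751 were tested, in 31 process lists and 9 marker lists. The comparison, the lists and their members were chosen with earlier results of these data known, and the gene windows, motifs and defining genes of lists after values were seen. Genes were named by a rule: the 15 largest rises and falls with groups that do not overlap, up to 4 that rose and 4 that fell with the smallest p in each list, the defining genes of a list, and the 10 largest differences from wild type each way, leaving out predicted genes. Other listed genes are named as examples of their counts. Promoter windows come from RefSeq on GRCm38.p6, and all 7 genes asked for had one.

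Replicate numbers appear in the titles of all groups. Same-numbered arrays did not deviate together, so they were not treated as pairs. Alternatives were other offsets, filters and normalizations, no trend, array weights, a replicate block, the Mist1KO arrays alone, means over probe sets and the omission of each array.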

Additional observations from a re-analysis of the deposited data

Results flagged for a closer look

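The test of the difference between the responses passed for 238 probe sets higher and 280 lower in Mist1KO. The differences below are log2 changes in Mist1KO minus those in wild type, each past an adjusted p of 0.05 in the same limma fit.

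Among genes of the immune system and the cell surface, the response was higher in Mist1KO for Iglv1 (5.05), Jchain (3.94), Ighm (3.52), Igkv8-30 (2.89) and Reg3g (3.85). It was also higher for the pentraxin Ptx3 (2.58), for Cd14 (1.66), Il4ra (2.19), Jak2 (1.92) and Nfkbia (1.06), and lower for the kinase Pim3 (-1.90). Ighm itself did not pass in Mist1KO (1.30, adjusted p = 0.0946). Without wild-type caerulein replicate 2 the differences of Ighm and Igkv8-30 were 2.87 and 2.15. The call was lost under 12 alternatives for Igkv8-30, 14 for Ptx3, 7 for Pim3, 4 for Ighm, 3 for Cd14 and 1 each for Reg3g and Il4ra.

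Among structural, epithelial and other genes the response was higher for Timp1 (2.73), Tax1bp3 (2.64), Slc4a4 (2.38), Krt19 (1.62), Sostdc1 (1.44), Cldn18 (1.43), Sdc1 (1.21) and Anxa2 (1.17), and lower for Actg1 (-1.45). Of these, Slc4a4 lost its call under 15 alternatives, Sostdc1 under 14 and Anxa2 under 1. Tax1bp3 lost it without Mist1KO caerulein replicate 1 or 2 (adjusted p 0.0590 and 0.0564), and Sdc1 lost it without Mist1KO saline replicate 2 or 3 or caerulein replicate 1 (adjusted p 0.0515, 0.0585 and 0.0533) and without the intensity trend.

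Responses of calcium and lipid genes were higher for Nfatc1 (1.81), Orai1 (1.28), Hmgcs1 (1.75), Idi1 (1.83) and the acyltransferase Mboat1 (2.46). They were lower for Gpam (-1.20) and the lipoprotein receptor Vldlr (-2.52). Mboat1 lost its call under 7 alternatives, and Gpam and Vldlr each under 1.

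Responses of stress and amino acid genes were lower for Fgf21 (-4.96), Sesn2 (-3.07), Trp53inp1 (-2.92), Cebpb (-2.47), Ppp1r15a (-2.28), Chac1 (-2.01), Sesn1 (-1.73), Cth (-1.37), Hspa9 (-1.28), Slc6a9 (-1.15) and Cbs (-1.11). Those of ER genes were lower for Herpud1 (-3.13), Creld2 (-1.49), Hspa5 (-1.24), Sel1l (-1.19), Ero1b (-1.09) and Selenos (-0.84). The call was lost under 13 alternatives for Selenos, 12 for Sesn1, 10 for Chac1, 9 for Ero1b, 5 for Sel1l and 1 for Cbs.

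Responses of early and regulatory genes were lower for Nfil3 (-3.10), Ifrd1 (-2.84), Ier2 (-2.67), Tada2a (-2.04), Myc (-1.69), Rora (-1.47), Ccnd2 (-1.39) and Jun (-1.20), and higher for Nr5a2 (1.42). The enzymes Nat8 (-3.46) and Hpgd (-2.71), which fell far in Mist1KO, were lower too. Among these, Jun lost its call under 15 alternatives, Tada2a under 13, and Nfil3 and Hpgd each under 1.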

How the results depend on the processing

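Under 23 alternative settings, 153 of the 204 named genes called in Mist1KO stayed called, and 51 lost the call in at least 1. Of 55 named differences between the genotypes 30 stayed called and 25 did not. The fit on the Mist1KO arrays alone gives no such difference and is not among the settings for these 55. Srebf2 alone changed sign, from -0.18 to 0.37 (adjusted p = 0.0426) as a mean over its probe sets. Median centring left 1338 probe sets lower in Mist1KO in place of 2110 and 836 lower in wild type in place of 1531, and array weights gave 3180 lower in Mist1KO. Without the intensity trend 328 probe sets differed between the genotypes, 157 higher and 171 lower, in place of 518. Leaving out 1 array gave 2634 to 3942 calls in Mist1KO (1219 to 1729 higher, 1411 to 2213 lower), 2153 to 2990 in wild type (1123 to 1451 higher, 1030 to 1539 lower) and 271 to 552 differences (119 to 259 higher, 142 to 293 lower). The differences numbered 344 without wild-type caerulein replicate 2, 309 and 274 without Mist1KO saline replicates 1 and 3, and 271 and 300 without Mist1KO caerulein replicates 1 and 2. Fitted on the 6 Mist1KO arrays alone, 4271 probe sets passed. With the replicate number as a block, 3536 passed in Mist1KO and 392 differed, and the deviations of same-numbered Mist1KO arrays had correlations of -0.054, -0.014 and 0.037, so that the number is no sign of pairing. Of 31 list counts of 4 or more, 16 stayed within 1.5 times under every setting; the counts that rose on the actin, junction, sterol and cytokine receptor lists did. The 4 exocytosis genes that fell were 1 or 2 under 7 settings, and what the omission of an array did to the other counts is given with their lists. The cause of these moves was not tested. Signals near or below the offset of 18.7, as for Fgf21 in Mist1KO, have little order.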

Other observations

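Gene families picked after their values were seen also changed in Mist1KO pancreas, where 10.2% of all genes rose and 14.0% fell. They overlap the lists above, and Tubb6, Tubb2a, Tpm1, Tpm3, Tpm4, Gstm1 and Cyp51, among others, are counted in both. Of 10 tubulin genes tested 7 rose and none fell, with a median of 1.61 on the log2 scale. Tubb5, a beta tubulin, had a mean signal of 620.8 after saline and 2058 after caerulein (3.25-fold, adjusted p = 2.45e-06), and its wild-type change was -0.04, so that the responses differed by 1.74 (adjusted p = 0.000997). All 4 tropomyosins, which stiffen actin filaments, rose, and for Tpm3 the response was higher than in wild type by 1.28 (adjusted p = 0.00406). Of 19 integrins 5 rose and none fell, led by Itga6, a laminin receptor chain, at 5.30-fold.

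Glutathione transferases and fatty acid enzymes fell in more cases than they rose. Of 14 glutathione transferases 10 fell and none rose, with a median of -0.64, and Gstm1 had mean signals of 2539 after saline and 1277 after caerulein. Of 40 cytochrome P450 genes, another family with enzymes of detoxification, 2 fell (Cyp4f15 and Cyp39a1) and 1 rose (Cyp51). Of 22 acyl-CoA and fatty acid enzymes 13 fell and 1 rose, with a median of -0.67. Cpt1a, which carries fatty acids into mitochondria, fell 3.34-fold from a mean of 1822 to 535 (adjusted p = 3.06e-06) and by 0.53 on the log2 scale in wild type, a difference of -1.21 (adjusted p = 0.00952). Hadhb, of the trifunctional oxidation enzyme, fell 3.05-fold, and Acsl4, an acyl-CoA synthetase for arachidonic acid, rose 4.06-fold. The families were searched by symbol, 22 in all, and the part of the array measures in these falls was not tested.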
